A study of Homo sapiens with 6 samples.

Results

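The mitochondrial ribosomal proteins are the nuclear-encoded proteins of the mitoribosome, the ribosome inside mitochondria. Their genes were taken by symbol: MRPL or MRPS followed by a digit, readthrough names with a hyphen left out. This gave 78 of the 17452 genes listed, all of them tested and all at 5 FPKM or more in every library. FPKM counts fragments relative to the length of the transcript and to the total mapped in the library. Transcript levels had been measured by RNA sequencing in MDA-MB-231, a human cell line from a triple-negative breast tumour, kept in L-15 medium with serum and without added CO2. There were 3 siPHF20L1 libraries, from cells transfected with siRNA against PHF20L1, and 3 siControl libraries, labelled as controls. PHF20L1, whose targets the study sought, is a chromatin protein that carries Tudor and PHD domains. Both groups are the same cell line with no engineered allele, and the transfection reagent was 1 of 2 Lipofectamine products, without a statement of which served which sample. The number and sequences of the siRNAs and the time of harvest are not stated. Whether the 3 libraries per group are separate cultures is not stated either, and the p-values therefore rest on a spread that may be technical.

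Mitoribosomes translate the few messages of mitochondrial DNA, which encode core subunits of the respiratory chain and of ATP synthase. Their RNAs come from mitochondrial DNA, whereas all their proteins are made in the cytosol and imported. The large subunit (MRPL genes) forms peptide bonds and the small subunit (MRPS genes) reads the message. Some of these proteins have counterparts in bacterial ribosomes and others are found only in mitochondria.

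PHF20L1 (Entrez 51105) had 2.67, 2.31 and 2.74 FPKM in siPHF20L1 libraries, against 15.75, 12.48 and 12.73 FPKM in siControl libraries. All 6 values went with the labels. The log2 difference, siPHF20L1 minus siControl on the log2(FPKM + 1) scale as everywhere here, was -2.03 (SE 0.10, limma, adjusted p = 1.46e-06). Of the markers of the line, ESR1 was at 0 FPKM in all libraries, PGR at no more than 0.05 FPKM and CDH1 at no more than 0.45 FPKM, all of them low or absent in MDA-MB-231. Of the other luminal or epithelial markers, KRT19 was at 22.1 FPKM in siPHF20L1 and 30.1 FPKM in siControl libraries (lower), and FOXA1 at 1.19 FPKM in siPHF20L1 and 2.51 FPKM in siControl libraries (lower). EPCAM was at 4.31 FPKM in siPHF20L1 and 2.20 FPKM in siControl libraries (higher), and GATA3 at 1.60 FPKM in siPHF20L1 and 1.96 FPKM in siControl libraries (not called). Of 7 markers that are high in the line, 6 were well expressed, VIM at 1015 FPKM in siPHF20L1 and 1624 FPKM in siControl libraries (lower). AXL, FOSL1 and CAV1 were also lower (log2 differences -0.97, -0.55 and -0.36), and CD44 and MSN were not called. SPARC was low at 0.647 FPKM in siPHF20L1 and 1.06 FPKM in siControl libraries (not tested). PTPRC, a leukocyte marker, was at 1.13 FPKM in siPHF20L1 and 1.08 FPKM in siControl libraries (not called). COL1A1, a fibroblast marker, was at 4.67 FPKM in siPHF20L1 and 5.72 FPKM in siControl libraries (lower). PECAM1 of endothelium and ALB of hepatocytes were at no more than 0.50 and 0.05 FPKM. Depth, estimated from the steps between low FPKM values, lay between 17150000 and 17550000 fragments per library, though a multiple of it could fit the same steps. The library numbered 1 stood apart from those numbered 2 and 3 in both groups. For members where this shows, differences within the number 1 and within the numbers 2 and 3 are given as a pair.

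The genes of the mitoribosome held rises and falls in near equal number. After knockdown 20 of the 78 were higher, 17 were lower and 41 did not pass the threshold (limma on log2(FPKM + 1), Benjamini-Hochberg adjusted p under 0.05 over all 11560 genes tested). That is 47.4% of the members, beside 58.6% of all genes tested. By direction, 25.6% of the members were higher and 21.8% lower, beside 34% and 24.7% of all genes. Their median log2 difference was -0.01, beside 0.05 for all genes, and their median absolute difference was 0.18, beside 0.28. The range was -0.83 (MRPL28) to 0.97 (MRPL49). No member reached a 2-fold change, which 5.23% of all genes did. Of the 37 called members, 9 changed by at least 0.5 on the log2 scale, beside 2933 of the 6777 called among all genes. The 3 libraries of one group all lay above or below those of the other in 43 members (55.1%), 22 higher and 21 lower, beside 63.7% of all genes.

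The balance of directions moved with the scaling, in the members and over all genes. Of the member calls, 54.1% were higher with the FPKM as deposited, beside 57.9% of the calls over all genes. With quantile normalization 42.1% were higher (16 higher, 22 lower), beside 49.2%. With median-ratio size factors 36.4% were higher (12 higher, 21 lower), beside 48.3%. With the replicate number as a block, 27 members were higher and 27 lower (69.2% called, beside 76.1% of all genes). The libraries numbered 2 and 3 alone gave 26 and 26 (66.7%, beside 71.3% of all genes). Averaging these libraries as 1 sample gave 11 and 12 (29.5%, beside 42.3% of all genes).

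**Figure D1:**
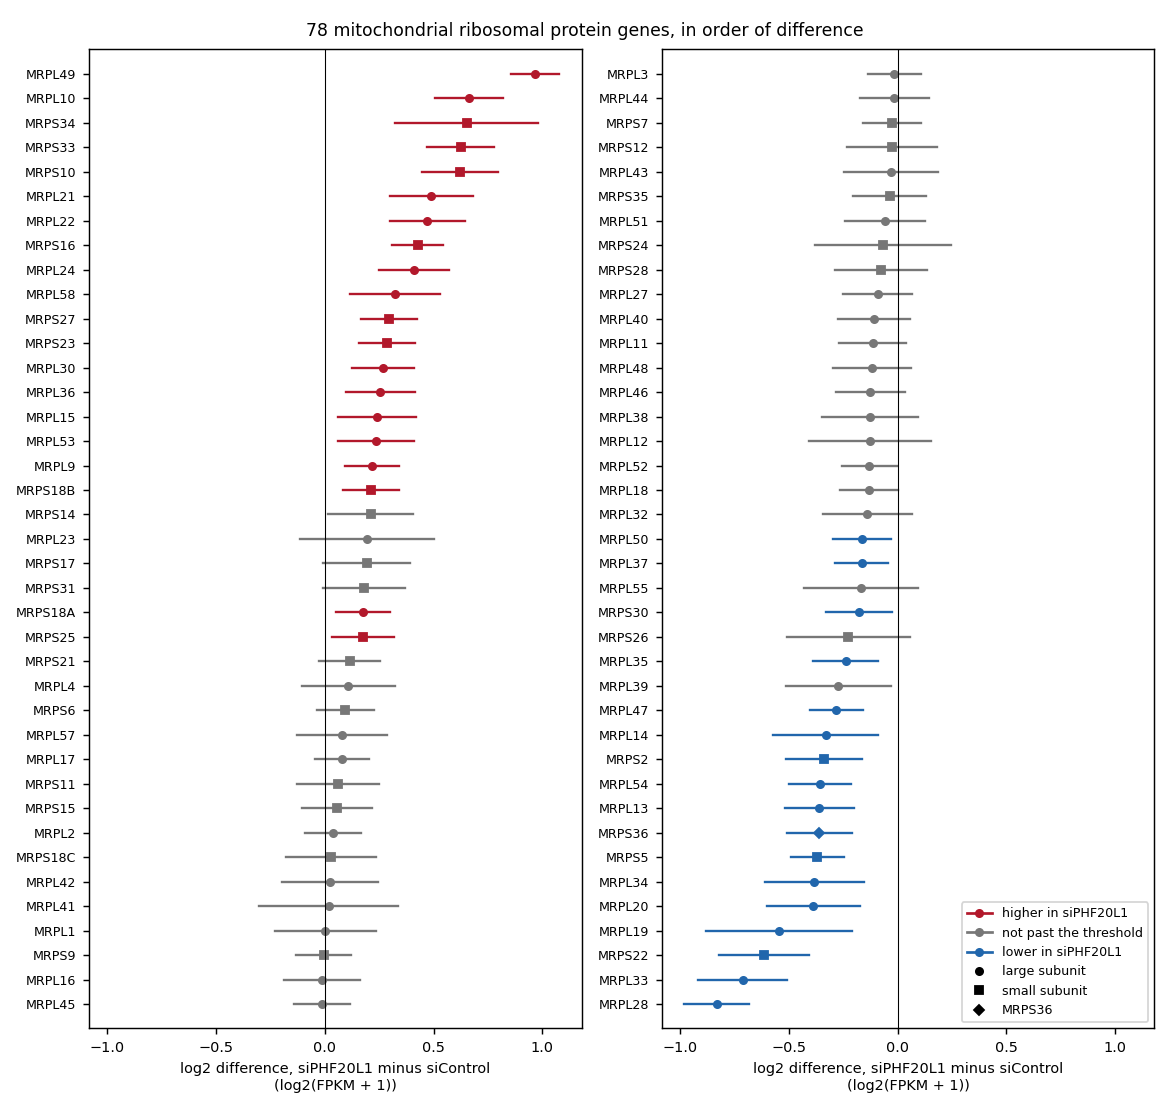
Log2 difference, siPHF20L1 minus siControl, of each of the 78 members on the log2(FPKM + 1) scale, with its 95% interval from limma (n = 3 libraries per group), in order from the highest (top left) to the lowest (bottom right). Circles are large subunit proteins, squares small subunit proteins and the diamond MRPS36; 20 members are marked higher, 17 lower and 41 as not past the threshold.

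Of the 51 large subunit members, 12 were higher and 13 lower (23.5% and 25.5%, beside 34% and 24.7% of all genes), with a median of -0.06. MRPL49 (Entrez 740), a large subunit protein found only in mitochondria, had 65.93, 67.23 and 66.62 FPKM in siPHF20L1 libraries, against 34.18, 33.44 and 33.23 FPKM in siControl libraries. The groups stood far apart and the libraries within each were nearly level. Its mean was 1.98 times that of siControl (log2 difference 0.97, SE 0.05, limma, adjusted p = 1.67e-06), the largest change of any member. MRPL10 (Entrez 124995), the counterpart of bacterial L10 that holds the stalk protein MRPL12 on the ribosome, had 39.22, 41.93 and 40.67 FPKM in siPHF20L1 libraries and 23.25, 25.48 and 27.26 FPKM in siControl libraries. Again the groups did not overlap (log2 difference 0.66, SE 0.07, limma, adjusted p = 6.77e-05). MRPL12 itself, named for this contact, was at 74.3 ± 10.3 FPKM in siPHF20L1 and 81.2 ± 10.9 FPKM in siControl libraries (SD, n = 3 each) and did not pass the threshold (log2 difference -0.13, 95% interval -0.41 to 0.15, limma, adjusted p = 0.396). With the replicate block it did (limma, adjusted p = 0.00399), as in the libraries numbered 2 and 3 alone (0.0333).

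Smaller rises in the large subunit were seen for MRPL21, the counterpart of bacterial L21, and for 2 proteins known to line the exit tunnel of the growing peptide. MRPL21 (Entrez 219927) averaged 44.4 ± 4.12 FPKM in siPHF20L1 and 31.3 ± 2.61 FPKM in siControl libraries (log2 difference 0.49). MRPL22 (Entrez 29093), the member of lowest mean level, had 8.97, 10.32 and 9.47 FPKM in siPHF20L1 libraries, against 7.06, 6.44 and 6.41 FPKM in siControl libraries (log2 difference 0.47). MRPL24 (Entrez 79590), number 2 in mean level, averaged 103 ± 4.80 FPKM in siPHF20L1 and 77.1 ± 6.13 FPKM in siControl libraries (log2 difference 0.41). All 3 had groups that did not overlap, at limma adjusted p-values of 0.00114, 0.000799 and 0.00115 in that order.

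The falls of MRPL28 and MRPL33 in the large subunit were the largest of any member, followed by MRPS22 of the small subunit and by MRPL19. MRPL28 (Entrez 10573), the counterpart of bacterial L28, had 37.31, 40.66 and 38.50 FPKM in siPHF20L1 libraries, against 65.45, 69.62 and 74.84 FPKM in siControl libraries. Every siPHF20L1 library lay far below every siControl library. Its mean was 1.80-fold lower (log2 difference -0.83, SE 0.07, limma, adjusted p = 1.48e-05). MRPL33 (Entrez 9553), the counterpart of bacterial L33, had 27.44, 30.43 and 26.30 FPKM in siPHF20L1 libraries and 48.14, 50.87 and 41.13 FPKM in siControl libraries. The groups did not overlap, although siControl 3 was well below its group's other libraries (log2 difference -0.71, SE 0.09, limma, adjusted p = 0.000195). MRPL19 (Entrez 9801), the counterpart of bacterial L19 and the lowest but 1 in level, had 7.92, 5.75 and 6.15 FPKM in siPHF20L1 libraries and 12.58, 9.23 and 8.66 FPKM in siControl libraries. The library numbered 1 was the highest of each group and the gap between siPHF20L1 1 and siControl 3 was narrow (log2 difference -0.55, SE 0.15, limma, adjusted p = 0.0117). The difference was -0.61 within the number 1 and -0.52 within the numbers 2 and 3.

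MRPL20, the counterpart of a bacterial protein needed early in the assembly of the large subunit, and MRPL34, the counterpart of bacterial L34, also fell. MRPL20 (Entrez 55052) averaged 31.7 ± 2.27 FPKM in siPHF20L1 and 41.9 ± 4.93 FPKM in siControl libraries (log2 difference -0.39, limma, adjusted p = 0.00677). MRPL34 (Entrez 64981) averaged 62.2 ± 7.28 FPKM in siPHF20L1 and 81.2 ± 8.07 FPKM in siControl libraries (log2 difference -0.38, limma, adjusted p = 0.0105). Both had their lowest library at number 1 in each group, with differences within the number 1 and within the numbers 2 and 3 of -0.29 and -0.43 for MRPL20 and of -0.39 and -0.38 for MRPL34. The other 8 large subunit proteins that fell changed by -0.36 to -0.16.

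**Figure D2:**
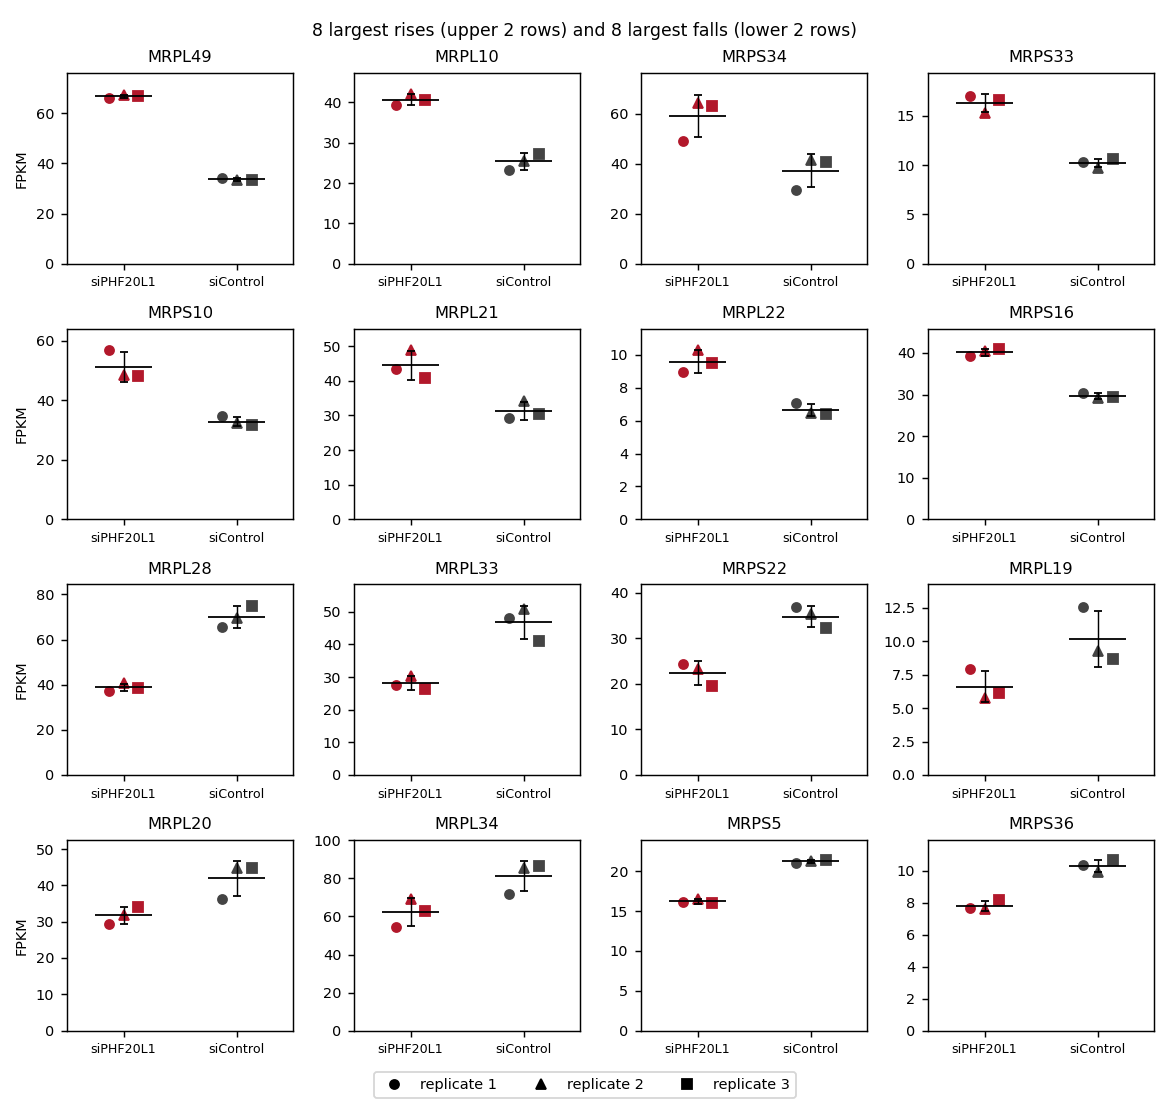
FPKM of the 8 members with the largest rises (upper 2 rows) and the 8 with the largest falls (lower 2 rows), siPHF20L1 left of siControl in each panel. Symbols are single libraries by replicate number, the line is the mean and the error bar the SD (n = 3); the panels were chosen among members whose groups do not overlap, and MRPL49 shows the widest gap among the rises and MRPL28 among the falls.

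Of the 26 small subunit members, 8 were higher and 3 lower (30.8% and 11.5%, beside 34% and 24.7% of all genes), with a median of 0.08. The symbol rule leaves out 4 proteins of this subunit, DAP3, PTCD3, AURKAIP1 and CHCHD1, of which 3 fell, and with them the count was 8 higher and 6 lower of 30, with a median of 0.04. MRPS34 (Entrez 65993), found only in mitochondria and mutated in a form of Leigh syndrome, had 49.27, 64.46 and 63.13 FPKM in siPHF20L1 libraries, against 29.60, 41.67 and 40.60 FPKM in siControl libraries. The groups did not overlap, and number 1 was lowest in both. Its log2 difference was 0.65 (SE 0.14, limma, adjusted p = 0.00434), and 0.72 within the number 1 and 0.62 within the numbers 2 and 3. MRPS33 (Entrez 51650), also specific to mitochondria, had 16.97, 15.29 and 16.60 FPKM in siPHF20L1 libraries and 10.30, 9.71 and 10.60 FPKM in siControl libraries. All 3 siPHF20L1 libraries were higher (log2 difference 0.63, SE 0.07, limma, adjusted p = 8.41e-05).

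MRPS10 (Entrez 55173), the counterpart of bacterial S10, had 56.86, 48.58 and 47.97 FPKM in siPHF20L1 libraries, against 34.57, 32.26 and 31.70 FPKM in siControl libraries. The groups did not overlap (log2 difference 0.62, SE 0.08, limma, adjusted p = 0.000179). MRPS16 (Entrez 51021), the counterpart of bacterial S16 and a gene mutated in inherited respiratory chain deficiency, averaged 40.2 ± 0.822 FPKM in siPHF20L1 and 29.6 ± 0.612 FPKM in siControl libraries. Its log2 difference was 0.43 (SE 0.05, limma, adjusted p = 0.000162).

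Of the 3 small subunit members that fell, MRPS22 (Entrez 56945), specific to mitochondria and also mutated in respiratory chain deficiency, changed most. It had 24.48, 23.32 and 19.53 FPKM in siPHF20L1 libraries, against 36.89, 35.32 and 32.25 FPKM in siControl libraries. The number 3 was lowest in both groups, which did not overlap (log2 difference -0.62, SE 0.09, limma, adjusted p = 0.000493). MRPS5 (Entrez 64969), the counterpart of bacterial S5, averaged 16.2 ± 0.298 FPKM in siPHF20L1 and 21.2 ± 0.222 FPKM in siControl libraries (log2 difference -0.37, limma, adjusted p = 0.000486). MRPS2 (Entrez 51116), the counterpart of bacterial S2 and number 4 in mean level, averaged 68.7 ± 3.74 FPKM in siPHF20L1 and 87.4 ± 7.78 FPKM in siControl libraries (log2 difference -0.34, limma, adjusted p = 0.00496).

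The names of some members do not give their place. MRPS36 (Entrez 92259), counted in neither subunit because the protein is now known as a part of the 2-oxoglutarate dehydrogenase complex, averaged 7.81 ± 0.298 FPKM in siPHF20L1 and 10.3 ± 0.377 FPKM in siControl libraries (log2 difference -0.36, limma, adjusted p = 0.00151). MRPS18A, MRPS18B and MRPS18C are 3 paralogs of bacterial S18, of which MRPS18A sits in the large subunit. Their log2 differences were 0.18 (limma, adjusted p = 0.0211), 0.21 (0.0104) and 0.03 (0.804). The call of MRPS18A was lost without siPHF20L1 2 (0.0550), siPHF20L1 3 (0.0998) or siControl 2 (0.0779), and its adjusted p ranged from 0.000686 to 0.169 over the alternatives. That of MRPS18B was lost with median-ratio size factors (0.0785) and with the libraries numbered 2 and 3 averaged (0.0712).

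MRPS30, also a large subunit protein despite its name, was 1 of 3 called members nearest the threshold. It averaged 24.6 ± 1.81 FPKM in siPHF20L1 and 27.9 ± 0.598 FPKM in siControl libraries (log2 difference -0.18, limma, adjusted p = 0.0462). MRPL50 at -0.16 (limma, adjusted p = 0.0409) and MRPS25 at 0.17 (0.0382) were the others. Leaving out any 1 library ended the call of MRPS30, with adjusted p-values of 0.115, 0.0553 and 0.0683 without siPHF20L1 1, 2 and 3 and of 0.0626, 0.0931 and 0.133 without siControl 1, 2 and 3. MRPL50 lost its call without siPHF20L1 2 (0.0966) or 3 (0.136) and without siControl 2 (0.12) or 3 (0.147), and MRPS25 without siPHF20L1 2 (0.104) or 3 (0.136) and without siControl 2 (0.0989) or 3 (0.127). Other alternatives that ended the calls were averaging the libraries numbered 2 and 3 (0.142 for MRPS30, 0.277 for MRPL50, 0.261 for MRPS25), equal sums of FPKM (0.0591 for MRPS30, 0.0563 for MRPL50), no trend in the prior variance (0.0589 for MRPS30, 0.0534 for MRPL50), no filter on low values (0.0568 for MRPS30), and quantile normalization and size factors (0.163 and 0.178 for MRPS25). Just past the threshold on the other side lay MRPL39 at -0.27 (limma, adjusted p = 0.0521), MRPS14 at 0.21 (0.0614) and MRPL52 at -0.13 (0.0704). With the replicate number as a block these had adjusted p-values of 0.000477, 0.00795 and 0.00628.

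Among the 41 members that were not called, log2 differences lay between -0.27 and 0.21. The 95% intervals reached from -0.51 to 0.50, and 38 of the 41 lay within 0.5 of 0 on either side, all from the fit with no block. With the replicate block, 17 of these 41 passed the threshold and the intervals of all 41 reached from -0.38 to 0.34. The block raised the share called from 47.4% to 69.2% of the members and from 58.6% to 76.1% of all genes. MRPS24, the counterpart of bacterial S3 and the member of highest mean level, had 91.88, 122.66 and 110.62 FPKM in siPHF20L1 libraries and 92.60, 125.85 and 123.20 FPKM in siControl libraries. The groups overlapped and number 1 was lowest in both (log2 difference -0.07, 95% interval -0.38 to 0.24), with -0.01 within the number 1 and -0.10 within the numbers 2 and 3. MRPL51, number 3 in mean level, averaged 87.5 ± 7.05 FPKM in siPHF20L1 and 91.1 ± 7.76 FPKM in siControl libraries (log2 difference -0.06, 95% interval -0.24 to 0.13). MRPL45, named here for its role in anchoring the ribosome to the inner membrane after its values were seen, averaged 30.8 ± 0.962 FPKM in siPHF20L1 and 31.1 ± 1.17 FPKM in siControl libraries (log2 difference -0.01, 95% interval -0.14 to 0.12).

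Summed over all 78 genes, the members came to 2683, 2894 and 2787 FPKM in siPHF20L1 libraries, against 2662, 2886 and 2837 FPKM in siControl libraries. The groups overlapped, and their means stood at a ratio of 0.998. The large subunit summed to 1926 ± 81.1 FPKM in siPHF20L1 and 1970 ± 81.4 FPKM in siControl libraries, and the small subunit to 855 ± 24.4 FPKM in siPHF20L1 and 815 ± 36.6 FPKM in siControl libraries (SD, n = 3 each). In a bulk library, fewer cells with a transcript and less of it per cell cannot be told apart.

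**Figure D3:**
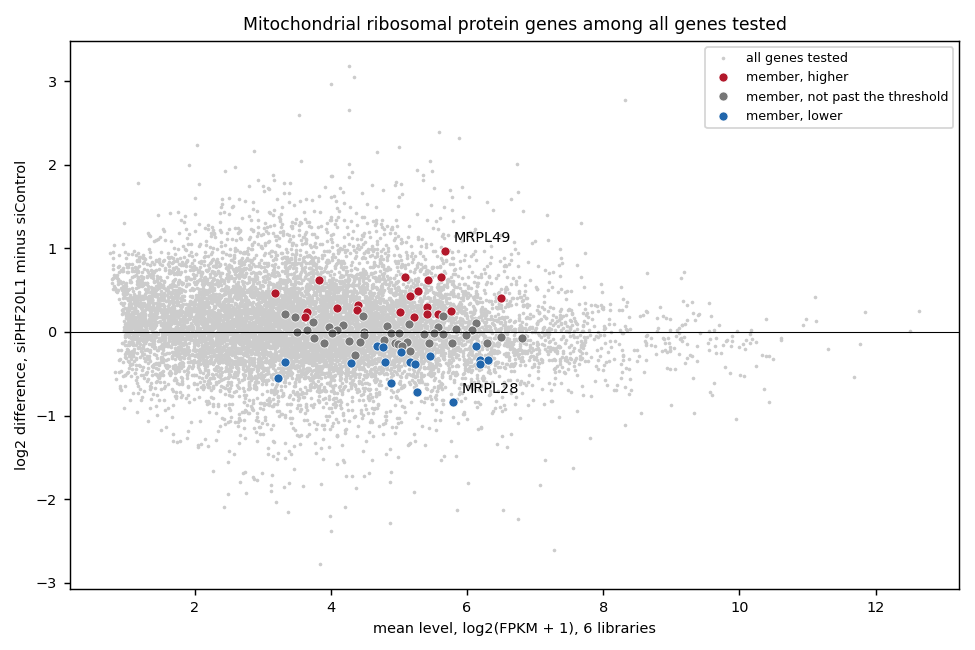
Log2 difference, siPHF20L1 minus siControl, against mean level over the 6 libraries, both on the log2(FPKM + 1) scale. Grey points are all 11560 genes tested and coloured points the 78 members, which lie at middle to high levels between MRPL49 at 0.97 and MRPL28 at -0.83.

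Higher and lower members were found at all levels and in both evolutionary classes. Over all genes tested, 34% were higher and 24.7% lower. The 26 members of highest siControl level held 3 higher and 9 lower genes (11.5% and 34.6%, median -0.06). The middle 26 held 10 and 5 (38.5% and 19.2%, median -0.01), and the lowest 26 held 7 and 3 (26.9% and 11.5%, median 0.04). Across the 78 members the log2 difference and the mean level had a Pearson r of -0.06 and a Spearman rho of -0.08, as a description over genes that share the same libraries. Of 48 proteins with a bacterial counterpart 12 were higher and 11 lower (25% and 22.9%). Of 29 specific to mitochondria 8 were higher and 5 lower (27.6% and 17.2%). The 9 small subunit members specific to mitochondria held 5 higher and 1 lower (55.6% and 11.1%), with a median of 0.18. With the 4 proteins outside the symbol rule, however, the class held 5 higher and 4 lower of 13, with a median of -0.0017. The 20 large subunit members specific to mitochondria held 3 and 4 (15% and 20%), with a median of -0.08. No test was made between these classes.

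The library numbered 1 often deviated from the others in the same direction in both groups. It was the lowest of its group in both groups for 30 members, whose transcripts had a median GC content of 55.3%, and the highest in both for 15 members, with a median of 41.6%. Over the 78 members the deviation of number 1 and transcript GC had a Pearson r of -0.78 and a Spearman rho of -0.76, and over 11331 genes tested -0.74 and -0.77. The log2 difference itself had an r of -0.0015 with transcript GC over the members. In all 37 called members the groups did not overlap, which fixes the sign within the number 1 and within the numbers 2 and 3, so that the sizes carry the comparison. MRPL49 had 0.93 and 0.98, MRPL28 had -0.79 and -0.85, and MRPL22 had 0.31 and 0.55. Over all 78 members the medians were 0.03 within the number 1 and -0.02 within the numbers 2 and 3.

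**Figure D4:**
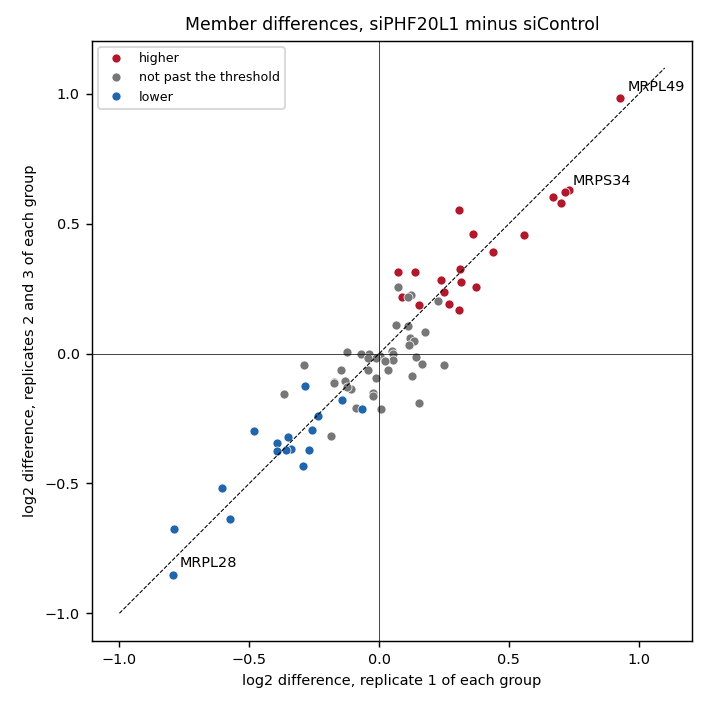
Log2 difference, siPHF20L1 minus siControl, of the 78 members between the libraries numbered 1 (x axis, 1 library per group) and between those numbered 2 and 3 (y axis, mean of 2 libraries per group), on the log2(FPKM + 1) scale; the dashed line marks equal values. Higher and lower members lie in opposite corners near the line, with MRPL49 at 0.93 and 0.98 and MRPL28 at -0.79 and -0.85.

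Several members share exon bases with a neighbouring gene in GENCODE 29, and whether the counting used strand was not given in the sources used here, so their values are uncertain. A listed partner on the same strand was found for 8 members. In 4 of these 8 pairs both genes were called. The 58.6% called of all genes tested is a share of single genes and no measure for pairs. The share over other overlapping pairs is not given here. In all 4 the genes moved in opposite directions, and how often other overlapping pairs do so is not given here. TMEM8A, which shares exon bases with MRPL28, averaged 40.6 ± 5.50 FPKM in siPHF20L1 and 23.1 ± 2.25 FPKM in siControl libraries (log2 difference 0.78, limma, adjusted p = 0.00035). BRE, the partner of MRPL33, averaged 24.8 ± 0.921 FPKM in siPHF20L1 and 15.8 ± 0.583 FPKM in siControl libraries (log2 difference 0.62). ZNF514, the partner of MRPS5, had a log2 difference of 0.64, and DNAJC9, the partner of MRPS16, one of -0.52. These partners were looked up after the values of the members were seen, and the part of shared fragments in these differences was not tested.

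On the opposite strand, 21 members had a listed partner. Of 23 pairs tested, both genes were called in 7, in 4 of them in the same direction and in 3 in opposite ones. Here too, the 58.6% called of all genes tested is a share of single genes and not of pairs. SYVN1 and FAU both overlap MRPL49. SYVN1 had 53.01, 53.37 and 52.36 FPKM in siPHF20L1 libraries and 41.53, 44.12 and 41.91 FPKM in siControl libraries, a log2 difference of 0.31 where MRPL49 had 0.97. FAU, which encodes a cytosolic ribosomal protein, had 236.34, 314.84 and 285.14 FPKM in siPHF20L1 libraries and 216.02, 280.33 and 289.44 FPKM in siControl libraries. The groups overlapped and FAU was not called (log2 difference 0.09, limma, adjusted p = 0.577).

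RefSeq promoters (GRCh38.p14, 250 bases before to 50 after the start) were at hand for 70 of the 78 members and were searched on both strands for 4 motifs known from genes of mitochondrial proteins or from promoters in general. The ETS motif CCGGAAG was found in 42.9% of these members (30 genes) and in 23.7% of 9543 genes tested. The YY1 motif AANATGGCG was found in 25.7% (18 genes) and in 8.65%. The motif GCGCANGCG of NRF1, a regulator of nuclear genes for mitochondria, was found in 20% (14 genes) and 17.6%, and the CCAAT box in 32.9% and 43.3%. In 68 cytosolic ribosomal protein genes ETS stood in 35.3%, YY1 in 13.2%, NRF1 in 13.2% and CCAAT in 35.3%. In 75 oxidative phosphorylation genes the shares were 29.3%, 24%, 32% and 36% in that order. Over all 35116 promoters, counted per promoter and not per gene, the shares were 10.3% for ETS, 3.19% for YY1, 7.52% for NRF1 and 34.6% for CCAAT. The ETS motif stood in 9 of 17 higher, 6 of 15 lower and 15 of 38 uncalled members, and the YY1 motif in 6, 3 and 9 of them. A match is a run of letters and not a measured binding site. The promoters of the largest rise and the largest fall are shown with those of MRPS10 and MRPS22. MRPS10 rose and holds both motifs. MRPS22 fell and holds the ETS motif on 3 occasions in the window shown. MRPS34, which rose and is not shown, also holds the ETS motif on 3 occasions. Capitals mark ETS and YY1 matches in either orientation. There were 2 windows for MRPL49, neither with any of the 4 motifs. For MRPS22 there were 3, the last of them without an ETS match. Of each gene 1 window is shown.
MRPL49, chr11:65122071-65122370, plus strand: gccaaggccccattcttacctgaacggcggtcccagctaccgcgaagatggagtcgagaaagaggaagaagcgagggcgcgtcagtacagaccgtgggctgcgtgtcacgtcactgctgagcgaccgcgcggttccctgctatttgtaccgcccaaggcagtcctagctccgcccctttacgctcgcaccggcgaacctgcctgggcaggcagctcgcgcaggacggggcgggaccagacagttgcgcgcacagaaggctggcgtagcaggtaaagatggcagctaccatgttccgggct
MRPS10, chr6:42217812-42218111, minus strand: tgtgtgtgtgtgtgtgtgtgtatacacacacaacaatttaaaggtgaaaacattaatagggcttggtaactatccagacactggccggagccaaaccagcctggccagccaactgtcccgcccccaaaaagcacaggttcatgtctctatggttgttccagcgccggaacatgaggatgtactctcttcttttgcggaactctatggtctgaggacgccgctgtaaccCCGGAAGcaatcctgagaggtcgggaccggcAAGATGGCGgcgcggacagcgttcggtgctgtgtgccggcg
MRPL28, chr16:370489-370788, minus strand: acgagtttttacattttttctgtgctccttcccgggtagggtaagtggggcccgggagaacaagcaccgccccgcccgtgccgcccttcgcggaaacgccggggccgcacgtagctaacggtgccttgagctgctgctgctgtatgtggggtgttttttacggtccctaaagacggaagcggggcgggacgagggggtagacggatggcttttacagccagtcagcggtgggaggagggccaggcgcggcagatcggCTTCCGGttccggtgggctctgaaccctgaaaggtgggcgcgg
MRPS22, chr3:139343744-139344043, plus strand: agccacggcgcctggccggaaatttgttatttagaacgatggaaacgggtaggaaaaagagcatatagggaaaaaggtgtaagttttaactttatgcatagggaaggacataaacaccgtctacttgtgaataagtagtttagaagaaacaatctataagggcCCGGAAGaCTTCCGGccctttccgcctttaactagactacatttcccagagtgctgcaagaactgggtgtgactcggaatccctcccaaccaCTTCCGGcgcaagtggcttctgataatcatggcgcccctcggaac

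The 5 proteins of the mitoribosome whose symbols lie outside the rule were also measured. Of these, 3 fell and none rose (60% lower, beside 24.7% lower and 34% higher of all genes). PTCD3, a small subunit protein with pentatricopeptide repeats, had 17.64, 15.65 and 15.76 FPKM in siPHF20L1 libraries, against 27.74, 25.21 and 24.32 FPKM in siControl libraries. The groups did not overlap (log2 difference -0.62, SE 0.07, limma, adjusted p = 0.00014). DAP3, the GTP-binding protein of the small subunit, averaged 45.3 ± 1.13 FPKM in siPHF20L1 and 63.3 ± 0.659 FPKM in siControl libraries (log2 difference -0.47, limma, adjusted p = 7.31e-05). AURKAIP1, also of the small subunit, averaged 65.4 ± 7.05 FPKM in siPHF20L1 and 86.6 ± 7.27 FPKM in siControl libraries (log2 difference -0.40, limma, adjusted p = 0.00538). The other 2 did not pass the threshold. DAP3 overlaps YY1AP1 on the opposite strand.

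Of 26 factors for mitoribosome assembly and rRNA, 8 were higher and 5 lower (30.8% and 19.2%, beside 34% and 24.7% of all genes), with a median of 0.01. MPV17L2, an inner membrane protein known to be needed for mitoribosome assembly, had 5.07, 6.52 and 6.56 FPKM in siPHF20L1 libraries, against 26.82, 29.75 and 30.34 FPKM in siControl libraries. The groups were wide apart, at a mean 4.79-fold lower (log2 difference -2.09, SE 0.10, limma, adjusted p = 1.21e-06), close in size to PHF20L1 itself and more than that of any member. MPV17L2 overlaps RAB3A on the opposite strand. MRM1, which methylates a ribose of the large rRNA, had 4.85, 6.68 and 6.20 FPKM in siPHF20L1 libraries and 2.82, 3.25 and 3.70 FPKM in siControl libraries (log2 difference 0.69, limma, adjusted p = 0.00116). DDX28, an RNA helicase of large subunit assembly, averaged 4.13 ± 0.679 FPKM in siPHF20L1 and 2.62 ± 0.511 FPKM in siControl libraries (log2 difference 0.50, limma, adjusted p = 0.0102). Both had groups that did not overlap, at low levels. DDX28 overlaps DUS2 on the opposite strand.

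Of 16 mitochondrial translation factors 5 were higher and 3 lower (50% called, beside 58.6% of all genes), with a median of 0.13. MTIF2, which brings the initiator tRNA to the small subunit, averaged 20.2 ± 2.01 FPKM in siPHF20L1 and 13.7 ± 1.02 FPKM in siControl libraries (log2 difference 0.53, limma, adjusted p = 0.00082). Of 18 factors for mitochondrial transcription and mRNA, 1 was higher and 6 were lower, with a median of -0.00. These are 5.56% and 33.3%, beside 34% and 24.7% of all genes (38.9% called, beside 58.6%). TFAM, which packages mitochondrial DNA and starts its transcription, had 9.70, 8.15 and 7.78 FPKM in siPHF20L1 libraries, against 18.84, 15.89 and 14.50 FPKM in siControl libraries. Number 1 was highest in both groups, which did not overlap (log2 difference -0.87, SE 0.11, limma, adjusted p = 0.000208), with -0.89 within the number 1 and -0.85 within the numbers 2 and 3. KIAA0391, the nuclease of mitochondrial RNase P, averaged 6.76 ± 0.820 FPKM in siPHF20L1 and 12.3 ± 0.200 FPKM in siControl libraries (log2 difference -0.78, limma, adjusted p = 9.99e-05), and overlaps PPP2R3C on the opposite strand.

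**Figure D5:**
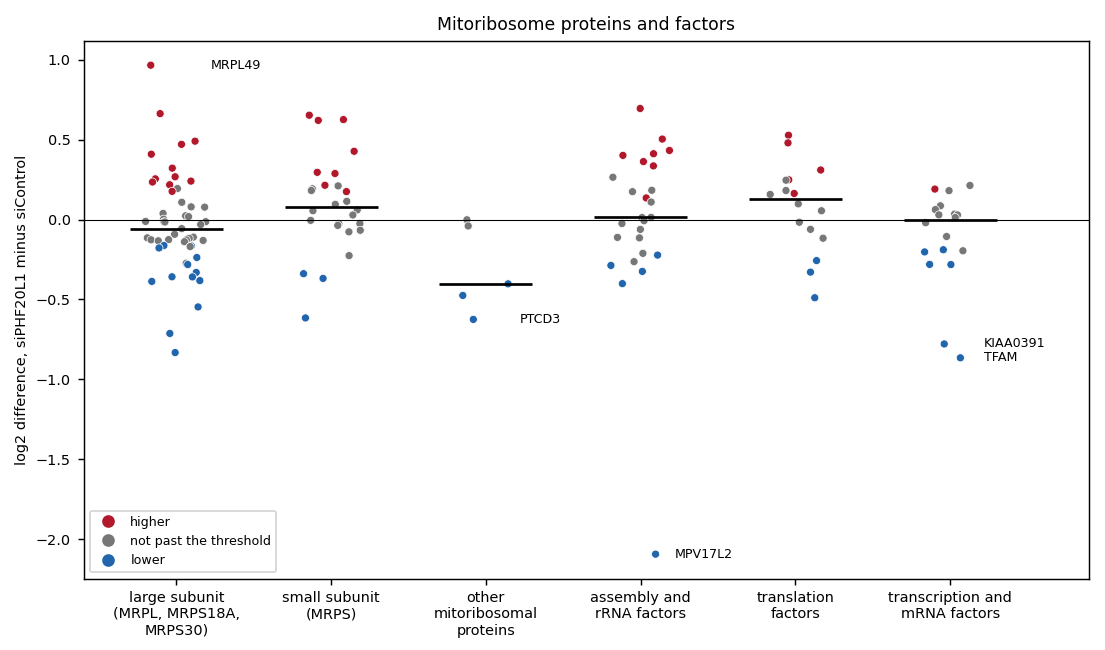
Log2 difference, siPHF20L1 minus siControl on the log2(FPKM + 1) scale, of the large and small subunit members, of other mitoribosomal proteins and of the 3 lists of factors. Each point is a gene, coloured by call, the black line is the median of the list and the sideways spread has no meaning; MPV17L2 lies alone at -2.09 and TFAM and KIAA0391 at -0.87 and -0.78.

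Other families were read from the same fit, with no test between them and the members. Of 83 genes tested with symbols of cytosolic ribosomal proteins 3 were higher and 24 lower (3.61% and 28.9%, beside 34% and 24.7% of all genes), with a median of -0.13. The symbol rule takes in like-named genes such as RPL22L1 and RPL26L1 (both higher) and RPL7L1, RPS27L and RPL36AL (all lower), and leaves out FAU. Of 87 oxidative phosphorylation genes tested, also taken by symbol, 11 were higher and 26 lower (12.6% and 29.9%), also with a median of -0.13. Of 17 mitochondrial aminoacyl-tRNA synthetases, which charge the tRNAs that mitoribosomes use, 8 were higher and 5 lower (47.1% and 29.4%), with a median of -0.02.

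The words CAAGAT and TAAGGA, picked in an earlier analysis from the log2 differences of these same libraries, stood in the longest annotated 3′ UTR of 33 members (42.3%), beside 54.4% of 11429 genes. The median length of this UTR was 592.5 nt in members, beside 1642 nt in all these genes. The median log2 difference was -0.01 in members with a word and -0.01 in those without, beside 0.02 and 0.09 for all genes.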

How the data were processed

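RNA sequencing of 6 MDA-MB-231 libraries (3 siPHF20L1, 3 siControl) was used, on poly-A RNA with a stranded kit per the labels' protocols. Tools named, per the submitters' processing notes, are TopHat2 2.1.1, HTSeq 0.6.0 and Bowtie 0.12.2, without a role for any; the build is GRCh37. Per the file headers the authors deposited 1 FPKM value per gene and library; no source used here gives the program, annotation or use of strand behind the FPKM. A spreadsheet date stood for 26 symbols, which were restored through Entrez identifiers, and 17419 of 17452 identifiers were in the reference table.

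Genes with at least 1 FPKM in at least 3 libraries were tested with limma 3.58.1 (R 4.3.3) on log2(FPKM + 1), all 6 libraries, with an intensity trend and no block, two-sided, Benjamini-Hochberg over 11560 genes, threshold 0.05; the pseudocount understates changes of low genes. The fit was tested on simulated data with independent noise in each library. These lacked the deviation of the number 1 that both groups share, so the test does not cover it. Sums of FPKM per library were 395250.9 to 416138.4. Depth was estimated from FPKM steps in short, low transcripts, where 1 fragment per kb was worth 0.0570 to 0.0583 FPKM. A whole fraction of this step, and so a multiple of the depth, could fit the same values. Within groups, the mean chi-square of estimated fragment numbers was 1.77 (siPHF20L1) and 1.99 (siControl) between the numbers 2 and 3 and 10.7 to 13.6 for pairs with number 1, and all were kept as separate samples. Deviations of same-numbered libraries correlated across genes at 0.73, 0.44 and 0.42, each over 0.1, which counts as pairing by the rule used; siPHF20L1 2 and siControl 3 reached 0.49, so the check mainly sets the number 1 apart. All calls, errors and intervals come from the fit with no block, as designed, and the block is an alternative, given where it moves a call or count.

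The members and lists were chosen with earlier results of these data known. Named were the 8 largest called rises and falls without overlap of the groups, the 4 highest and 3 lowest members by level, the S18 paralogs, MRPS30 and MRPS36, called factors with a log2 difference of at least 0.5 either way, and 3 members on each side of the threshold; the 5 other mitoribosomal proteins, MRPL12, MRPL45 and genes overlapping members were added for their role or place. Exon overlap, 3′ UTRs and GC came from GENCODE 29 and promoters from RefSeq GRCh38.p14; neither is the build of the files, so no coordinates of the measured genes are given beyond those of the promoters.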

Additional observations from a re-analysis of the deposited data

How the results depend on the processing

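Of 16 alternatives, the count of higher members moved by over 1.5 times with median-ratio size factors (12, against 20) and with the libraries numbered 2 and 3 averaged (11), and the count of lower members with the replicate block (27, against 17) and with only the libraries numbered 2 and 3 (26). The replicate block kept all 37 member calls in their direction; the named calls it added are given above. The member median of -0.014 was -0.067 with quantile normalization and -0.090 with median-ratio size factors. The median over all genes moved as well, from 0.0526 to -0.0136 and -0.0179 in the same fits. Leaving out 1 library gave 14 to 22 higher and 13 to 17 lower members, a median of -0.0164 to 0.0071, and 27 to 35 of the 37 calls in the same direction. These fits called 34.6% to 50% of members, beside 48.8% to 59.7% of all genes. The counts over all genes stayed within 1.5 times of 3926 higher and 2851 lower. Sign changes were seen in 5 named genes, none of them called. MRPS18C had -0.029 (quantile), -0.046 (size factors), -0.041 (numbers 2 and 3 only) and -0.055 to 0.119 without 1 library. MRPL45 had 0.0027 with equal sums of FPKM and -0.036 to 0.016 without 1 library. MRPS24 had -0.208 to 0.046, MRPL51 -0.122 to 0.0014 and FAU -0.041 to 0.205 without 1 library. Of 750 values of 47 named genes, 689 kept direction and side of the threshold, 32 lost a call, 16 gained one and 13 changed sign. The causes of these changes were not tested. The 16 largest changes kept their calls under all 16 alternatives. The FPKM step limits the precision of low genes, and intervals cover the spread between these libraries only.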
